A study of Mus musculus with 29 samples.

Results

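The genes described here are 32 collagen and extracellular matrix genes that dermal fibroblasts are known for, followed in mouse skin after deletion of Dlx3, which encodes a homeobox protein that acts in keratinocyte differentiation and hair formation. They were taken by gene symbol, from a list drawn up with earlier results of these data known, and all 32 were found in each of the 3 deposited expression tables, which together list 25226 genes. Dermal fibroblasts build most of the connective tissue under the epidermis, so in a library labelled epidermis these transcripts are also a measure of dermal RNA. Type I, III and V collagens form the fibrils, type VI collagen forms beaded filaments, and types XII and XIV sit on the fibril surface. Small leucine-rich proteoglycans such as decorin, lumican and fibromodulin bind the fibrils, elastin and fibrillin form the elastic fibres, and periostin, fibronectin, thrombospondin 2 and tenascin X connect matrix and cells. Some of these genes are not restricted to fibroblasts: vimentin (Vim) and fibronectin (Fn1) are also made by macrophages and endothelial cells.

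The deletion was induced in adult mice of mixed background (P42 to P46 in the series title) with tamoxifen through Cre driven by K14, the keratin promoter of basal keratinocytes, which is not active in fibroblasts. The deleted mice are called icKO. Day 3 epidermis was represented by 4 icKO and 3 WT libraries that received an inhibitor of STAT3, a transcription factor downstream of cytokine receptors (STAT3i), and by 4 icKO and 4 WT libraries without it, which the file headers give as vehicle. Day 3 dermis was represented by 3 libraries labelled icKO and 3 labelled WT, and each tissue at week 1 by 2 icKO and 2 WT libraries. Times are after tamoxifen, which all groups received per the labels; at week 1 it was topical for epidermis and intraperitoneal for dermis per the file headers, so tissue and route cannot be told apart. The values are RPKM, read numbers corrected for the length of the transcript and the size of the library, and the 3 tables (day 3 epidermis, day 3 dermis, week 1) were normalized separately. Libraries carry no replicate number in the tables and are lettered a to d within a group; the letters are names only. Nothing in the sources used here says that libraries came from separate animals, so p values measure the spread between libraries, which may be technical.

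Libraries of day 3 epidermis had 48.9 to 70.3 M recorded alignments and those of day 3 dermis 10.1 to 37.3 M, while the week 1 libraries had 37.3 to 57.3 M recorded reads. In day 3 epidermis, icKO libraries a and b differed less than any other pair of libraries of that table's groups (SD of the log2 ratio over 2402 genes 0.0494, against 0.0723 for icKO STAT3i a and d and 0.117 to 0.513 for the other pairs). They may be 1 sample, so calls that rest on them are also given with the pair averaged, and no mean is given for that group. Xist and Ddx3y, transcripts of the inactive X and of the Y chromosome, showed that the groups differed in sex. All 4 icKO STAT3i libraries held Xist only and all 3 WT STAT3i libraries held Ddx3y only, whereas without inhibitor 3 icKO libraries held Xist only and 1 both, and 3 WT libraries held Ddx3y only and 1, library c, Xist only. In day 3 dermis all libraries but 1 labelled WT held Xist only. At week 1 all epidermis and both icKO dermis libraries held Ddx3y only, while 1 WT dermis library held Ddx3y and 1 Xist. Dlx3 was at 1.29 to 2.22 RPKM in the 4 day 3 epidermis icKO libraries, against 0.95 to 7.21 RPKM in the 4 WT libraries, so WT library b (0.95 RPKM) went against its label. Day 3 epidermis also held 7899 to 21639 RPKM summed over 20 skeletal muscle markers, and week 1 epidermis 15.2 to 42.8 RPKM.

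Promoters are shown for 3 members that stood apart in the comparisons: periostin (Postn), which rose when the fibrillar collagens did not, fibromodulin (Fmod), with the largest fall in week 1 dermis, and Vim, which rose there. RefSeq promoters (GRCm38.p6, the 250 bases before an annotated start, read 5′ to 3′ on the gene's strand) were present for 20 of the 32 members. All 3 genes lie on the plus strand: the windows are chr3:54359017-54359266 and chr3:54360857-54361106 for the 2 annotated starts of Postn, chr1:134037004-134037253 for Fmod and chr2:13574061-13574310 for Vim. Capitals mark matches to the motifs searched on both strands, of which CAATTA is the reverse complement of TAATTG.
Postn, first start: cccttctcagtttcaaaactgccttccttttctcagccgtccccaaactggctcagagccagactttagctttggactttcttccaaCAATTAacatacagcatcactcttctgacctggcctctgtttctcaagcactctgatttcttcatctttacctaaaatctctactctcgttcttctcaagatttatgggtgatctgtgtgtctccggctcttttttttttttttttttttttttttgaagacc
Postn, second start: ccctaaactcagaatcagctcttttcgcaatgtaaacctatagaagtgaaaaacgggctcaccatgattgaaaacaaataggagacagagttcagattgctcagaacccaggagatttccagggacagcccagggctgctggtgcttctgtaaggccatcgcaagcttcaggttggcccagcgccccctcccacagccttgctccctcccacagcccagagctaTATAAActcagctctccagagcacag
Fmod: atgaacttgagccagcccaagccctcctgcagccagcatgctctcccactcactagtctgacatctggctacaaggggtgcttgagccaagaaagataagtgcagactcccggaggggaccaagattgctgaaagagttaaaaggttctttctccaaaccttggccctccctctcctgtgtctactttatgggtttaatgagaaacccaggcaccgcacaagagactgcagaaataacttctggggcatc
Vim: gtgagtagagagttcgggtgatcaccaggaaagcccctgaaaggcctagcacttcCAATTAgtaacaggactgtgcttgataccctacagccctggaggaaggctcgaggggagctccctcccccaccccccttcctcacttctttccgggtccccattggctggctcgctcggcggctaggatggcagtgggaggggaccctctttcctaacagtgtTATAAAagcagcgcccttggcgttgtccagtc
The Dlx-type homeobox core TAATTG occurred in 7.17% of all 32851 windows of this length, and among the 20 members in Postn and Vim. The TATA motif TATAAA occurred in 12.4% of windows and in 5 of the 20 members, among them the second Postn start, 26 bases before it, and Vim, 32 bases before the start. The STAT motif TTCNNNGAA, found in 7.02% of windows, occurred in 1 of the 20 members, the gene for dermatopontin (Dpt), and the AP-1 motif TGANTCA, found in 6.75%, in Col6a1 and Tnxb. The Fmod window held none of the 4 motifs, and neither did those of Col1a2, Sparc and Bgn, among others.

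The first question was how far the genes separate dermis from epidermis, which was answered by the week 1 WT libraries, dermis over epidermis. Most were far higher in dermis: 29 of the 32 rose and none fell, where 59.3% of all 13108 genes tested differed between the tissues. This and all tests below are limma's moderated test on log2(RPKM + 1), with Benjamini-Hochberg adjustment over all tested genes and 0.05 as the threshold, and log2 changes are on that scale, which understates the change of low genes. The median log2 difference was 3.89 over the members, against 0.07 over all genes. Every fibrillar and beaded-filament collagen, proteoglycan and elastic-fibre member passed. Some members, Eln, Fmod and Pdgfrb among them, were below 1 RPKM in both WT epidermis libraries and were tested only through their dermis values. Such a member had to be higher in dermis, so the count of rises was in part fixed in advance.

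Col3a1, the chain of type III collagen, was at 722 and 593 RPKM in WT dermis, against 12.9 and 17.7 RPKM in WT epidermis, a log2 difference of 5.34 ± 0.19 (SE, n = 2 each; adjusted p = 1.6e-06). Eln, elastin, was at 69.5 and 80.4 RPKM in WT dermis, against 0.269 and 0.466 RPKM in WT epidermis (log2 difference 5.80 ± 0.19, adjusted p = 1.3e-06). Neither gene overlapped between the tissues. With 2 libraries in each group, absence of overlap adds little to a call, here and in the other week 1 comparisons. The share of all genes whose groups did not overlap was not counted, in this or any later comparison. Mfap4, a protein of elastic microfibrils, gave 5.79, Fmod 5.50, Sparc, a collagen-binding secreted protein, 3.88, and the growth factor receptor Pdgfrb 3.90, all with SE 0.14 to 0.19. Col1a1, the main chain of type I collagen, was 3.86 ± 0.19 higher on the log2 scale in WT dermis and Dcn, decorin, 5.76 ± 0.46. Vim rose by 3.54 ± 0.76 (adjusted p = 0.0051), and its level in WT epidermis, 70.1 and 60.1 RPKM, was the highest of the members there after Postn. Fn1 rose by 2.21 ± 0.71 (adjusted p = 0.028), but the call was lost in 5 of 9 alternatives, including leaving out any of the 4 WT libraries (adjusted p = 0.0725 to 0.132).

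The other 3 members did not separate the tissues. Postn was at 173 and 77.8 RPKM in WT dermis, against 188 and 142 RPKM in WT epidermis (log2 difference -0.49 ± 0.44, adjusted p = 0.37). Col12a1, a fibril-associated collagen, was at 3.21 and 2.26 RPKM in WT dermis, against 2.63 and 1.89 RPKM in WT epidermis (0.20 ± 0.19, adjusted p = 0.40). Tnxb, tenascin X, was at 10.7 and 15.9 RPKM in WT dermis, against 15.7 and 12.3 RPKM in WT epidermis (-0.09 ± 0.21, adjusted p = 0.75). The values of all 3 overlapped between the tissues. Tnxb overlaps the pseudogene Cyp21a2-ps in the annotation and Ogn, osteoglycin, lies within Cenpp; no source used here says whether counting used strand, so reads of such overlapping genes cannot be told apart. As a check of the labels, 17 of 17 keratinocyte markers fell and 12 of 12 endothelial markers rose in WT dermis.

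**Figure D1:**
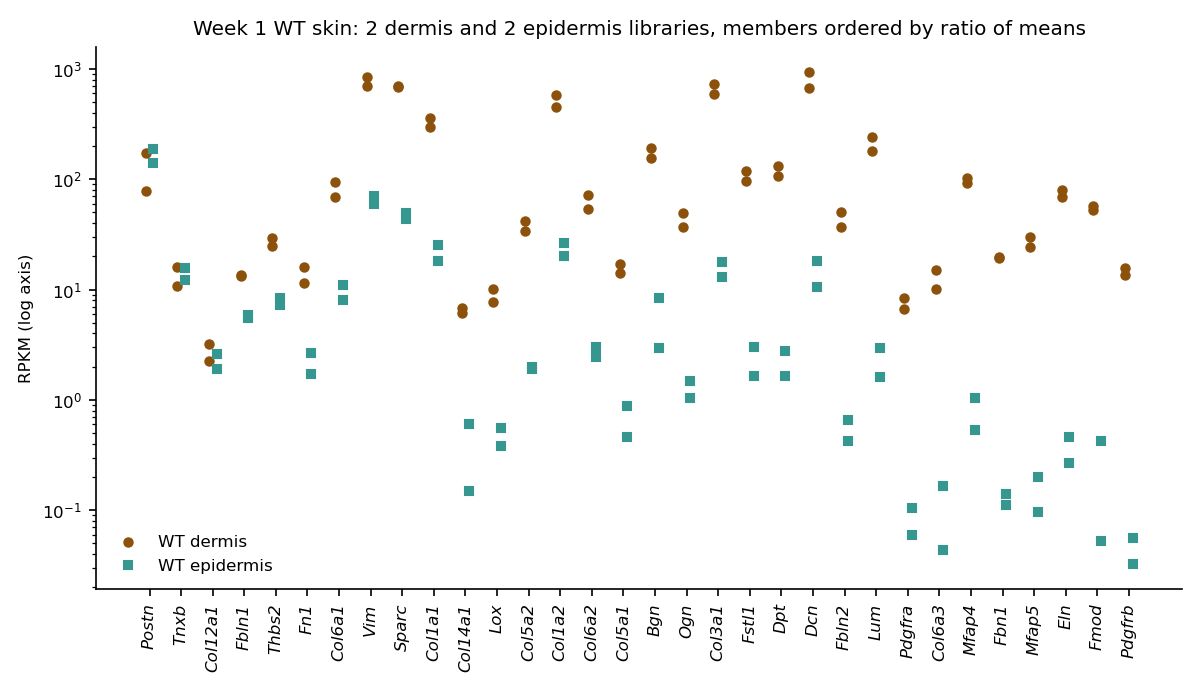
RPKM (log axis) of the 32 genes in the 2 WT dermis and 2 WT epidermis libraries of week 1, with 1 point per library and genes ordered by the ratio of the means. The ratio of dermis over epidermis runs between 0.762 for Postn and 329.8 for Pdgfrb, which was below 1 RPKM in both WT epidermis libraries. The points of the tissues overlap for Postn, Tnxb and Col12a1.

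Most genes needed to make and cross-link collagen were also higher in WT dermis. Of 19 collagen maturation genes tested, 17 rose and 2 fell in WT dermis, where 59.3% of all genes differed between the tissues. Among the 17 were the cross-linking enzyme Loxl1 (log2 difference 4.33 ± 0.16) and the procollagen proteinase enhancer Pcolce (4.74 ± 0.21). Those that fell were Adamts14, a procollagen protease (-1.34 ± 0.15), and P4ha1, a subunit of prolyl 4-hydroxylase (-0.73 ± 0.19). Of 16 genes of matrix turnover, 14 rose and 1 fell.

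The day 3 libraries labelled epidermis did not keep this division. Summed over the 32 genes, they held 7056 to 14649 RPKM in icKO and 3609 to 17865 RPKM in WT without inhibitor, and 4778 to 6838 RPKM in icKO and 12540 to 14842 RPKM in WT with it. At week 1 the sums were 214 and 680.3 RPKM in icKO epidermis, 425 and 404 RPKM in WT epidermis, 5062 and 5381 RPKM in icKO dermis and 5480 and 4901 RPKM in WT dermis. Day 3 dermis held 2122 to 6373 RPKM in the libraries labelled icKO and 4835 to 9050 RPKM in those labelled WT. These ranges overlapped those of day 3 epidermis. These sums come from 3 tables, so no test was made. Between the 15 day 3 epidermis libraries, Col1a1 varied the most, with a ratio of 14.2 of the highest to the lowest library, followed by the elastic-fibre gene Fbn1 (12.9), Col1a2 (11.8) and Col3a1 (10.7). Dpt (1.90), Tnxb (1.96) and Vim (2.13) varied the least. The spread thus differed widely between members. WT library c stood apart, with the lowest level of all 15 libraries for 19 of the 32 members, Col1a1, Col3a1 and Sparc among them; it is also the only WT library of this table with Xist.

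In day 3 epidermis without inhibitor, icKO against WT asks for the early effect of the deletion. A few non-fibrillar matrix genes were higher and the main fibrillar collagens did not differ beyond their spread. Of the 32 members, 3 rose and none fell, and 10 had an unadjusted p under 0.05; 9.38% of the members passed, against 12.8% of all 13095 genes tested. The order of these shares depended on the setting: with icKO a and b averaged 6.25% of the members and 3.6% of all genes were called, with only the compared groups fitted 3.12% and 0.809%, and with a term for sex 56.2% and 7.82%. The log2 change was positive for 24 members, with a median of 0.41 over the members and 0.04 over all genes; the members' median was 0.64 without WT a, 0.20 without WT c and 1.10 with the sex term.

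Col12a1 was at 8.17, 8.27, 6.51 and 7.98 RPKM in icKO libraries, against 2.28, 4.78, 2.25 and 2.07 RPKM in WT libraries. It rose by 1.23 ± 0.18 on the log2 scale (adjusted p = 0.0029), the groups did not overlap, and the call held in 15 of 15 alternatives. Postn, a secreted protein of collagen fibril assembly, was at 195, 201, 139.6 and 211 RPKM in icKO libraries, against 105, 111, 107 and 71.4 RPKM in WT libraries, again with no overlap, and rose by 0.92 ± 0.15 (adjusted p = 0.0043). Its call held in 14 of 15 alternatives and was lost when only the compared groups were fitted (adjusted p = 0.055). With icKO a and b averaged, Col12a1 (1.20 ± 0.20, adjusted p = 0.0161) and Postn (0.88 ± 0.17, adjusted p = 0.0216) kept their calls. Both are among the 3 members that did not separate dermis from epidermis at week 1.

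Col6a2, a chain of type VI collagen, was at 106, 105, 99.0 and 92.2 RPKM in icKO libraries, against 75.4, 82.4, 32.2 and 52.9 RPKM in WT libraries. It rose by 0.80 ± 0.25 at the edge of the threshold (adjusted p = 0.0497), and the call was lost in 12 of 15 alternatives, among them the averaging of icKO a and b (adjusted p = 0.126) and leaving out any icKO library, WT c or WT d. The other type VI chains lay just outside it: Col6a3 gave 1.00 ± 0.31 (adjusted p = 0.051) and Col6a1 0.61 ± 0.20 (adjusted p = 0.063), and the groups overlapped only for Col6a3, where icKO d (37.8 RPKM) was below WT a (37.9 RPKM).

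Col1a1 was at 1284, 1269, 3159 and 999 RPKM in icKO libraries, against 3452, 2269, 316 and 4482 RPKM in WT libraries. The icKO values lay within the WT range, and the log2 change of -0.28 ± 0.63 did not pass (adjusted p = 0.79). Col3a1, at 1576, 1575, 2471 and 1214 RPKM in icKO libraries and 3129.8, 1981, 291 and 2525 RPKM in WT libraries, gave 0.18 ± 0.55 (adjusted p = 0.85). Dcn, at 533, 532, 777 and 571 RPKM in icKO libraries and 816, 593, 728 and 1104 RPKM in WT libraries, gave -0.41 ± 0.17 (adjusted p = 0.13). Fn1 (0.55 ± 0.26, adjusted p = 0.17) and Vim (0.35 ± 0.19, adjusted p = 0.24) did not pass either.

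The count of members called moved with a term for sex and with single libraries. With this term, which only WT c (Xist only) and icKO c (both transcripts) inform, 18 members were called higher, and Col1a1 (1.76 ± 0.27), Col1a2 (1.49) and Sparc (1.16) turned positive. Without WT a, 11 members were called (34.4%, against 15.1% of all genes), without WT b, 9 (28.1% and 23.3%), and without icKO c, 3 (9.38% and 19.1%). Dcn was among those called without WT b (-0.54, adjusted p = 0.029) and without icKO c (-0.53, adjusted p = 0.041). The macrophage marker sum was 1519 to 1854 RPKM over 11 genes in icKO libraries, against 411 to 2300 RPKM in WT libraries; its part in these results was not tested.

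Of 21 collagen maturation genes, 4 rose and 1 fell in icKO epidermis, where 12.8% of all genes were called. The prolyl 4-hydroxylase subunits P4ha3 (1.05 ± 0.19, adjusted p = 0.0063) and P4ha1 (0.37 ± 0.07, adjusted p = 0.0095), which stabilize the collagen triple helix, and the lysyl hydroxylase Plod2 (0.65 ± 0.15, adjusted p = 0.015) rose. With icKO a and b averaged, P4ha3 (adjusted p = 0.030) and P4ha1 (adjusted p = 0.0405) kept their calls and Plod2 (adjusted p = 0.0568) did not. Of 16 matrix turnover genes 2 rose, the protease inhibitor Timp1 (1.09 ± 0.25) and the protease Mmp19 (1.07 ± 0.28), both lost on averaging (adjusted p = 0.0569 and 0.0946). The TGF-β pathway genes that passed included Skil, a repressor that the pathway induces, which rose by 0.44 ± 0.09, and Ltbp4, which binds latent TGF-β and fell by 0.54 ± 0.15; averaging kept Skil (adjusted p = 0.0361) but not Ltbp4 (adjusted p = 0.0912).

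**Figure D2:**
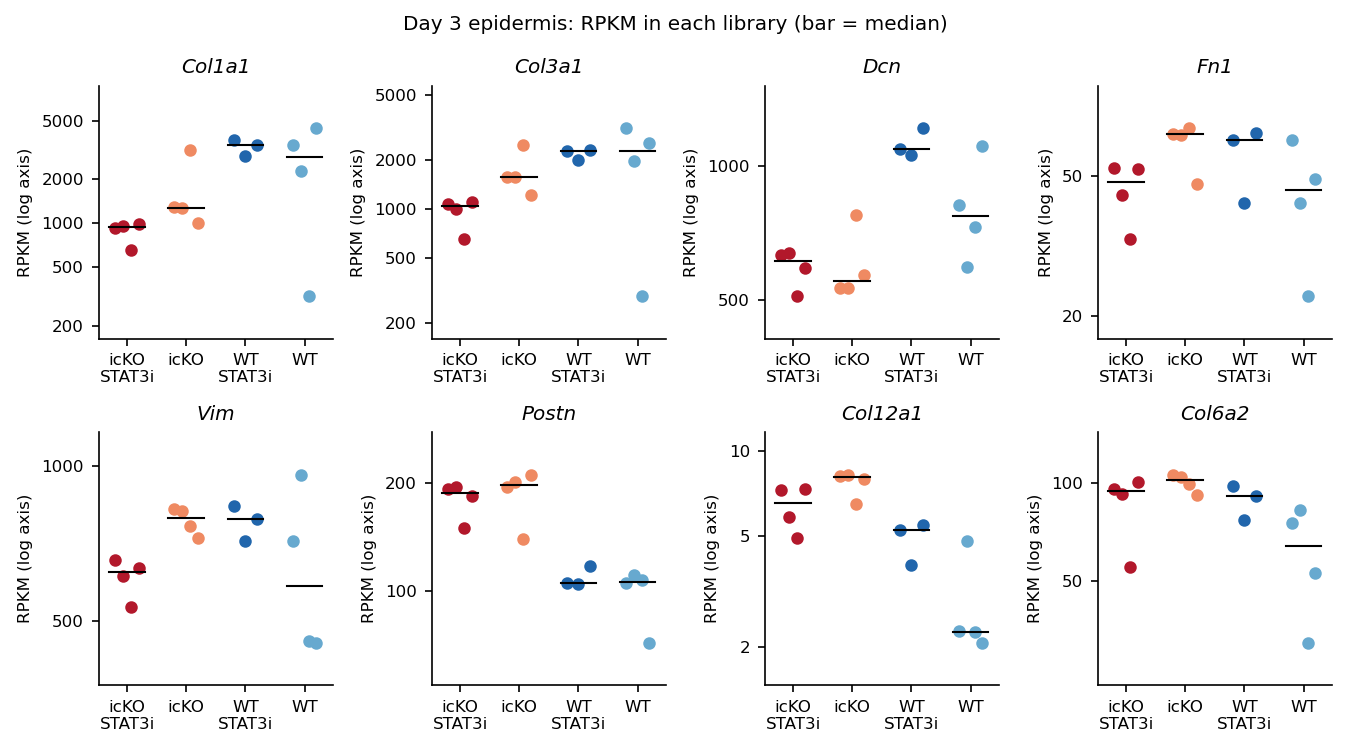
RPKM (log axis) of 8 members in each day 3 epidermis library, by group, with a bar at the group median. Postn and Col12a1 lie higher in all 4 icKO than in all 4 WT libraries without inhibitor, whereas the icKO values of Col1a1 (999 to 3159 RPKM) lie within the WT range (316 to 4482 RPKM).

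With the STAT3 inhibitor, 3 proteoglycans and both type I collagen chains fell in icKO epidermis, while Postn rose. Of the 32, 1 rose and 7 fell, so 25% of the members passed, against 34% of all 13241 genes tested; with only the compared groups fitted the shares were 53.1% of the members and 46.4% of all genes. The log2 change was negative for 28 members, with a median of -0.43 over the members and 0.02 over all genes, but the members' median was 0.52 with the sex term, under which none was called lower. All icKO libraries here held Xist only and all WT libraries Ddx3y only, so genotype and sex cannot be told apart.

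Dcn was at 632, 638, 510.2 and 591 RPKM in icKO STAT3i libraries, against 1088, 1055 and 1212 RPKM in WT STAT3i libraries, and fell by 0.92 ± 0.19 on the log2 scale (adjusted p = 0.0024). Ogn fell by 0.77 ± 0.18 (adjusted p = 0.0059) and Lum, lumican, by 0.75 ± 0.23 (adjusted p = 0.024). Tnxb fell by 0.64 ± 0.16 (adjusted p = 0.0072), with 45.9, 43.7, 40.3 and 48.9 RPKM in icKO STAT3i libraries and 78.9, 59.5 and 73.3 RPKM in WT STAT3i libraries. Dpt, a protein that aids fibril formation, fell by 0.46 ± 0.12 (adjusted p = 0.0079). None of these groups overlapped, but the share of all genes without overlap was not counted.

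Col1a1 was at 936, 956, 657 and 983 RPKM in icKO STAT3i libraries, against 3695, 2874 and 3437 RPKM in WT STAT3i libraries. Its fall of 1.93 ± 0.68 was the largest of the members (adjusted p = 0.043), while Col1a2 fell by 1.81 ± 0.63 (adjusted p = 0.039). The groups did not overlap. The spread in this fit was estimated over all 15 libraries, WT c included, and both calls were lost on leaving out any of the 7 libraries compared (adjusted p = 0.0658 to 0.115 for Col1a1). When the fit held the 7 libraries alone, 17 members were called, 16 of them lower. Col3a1, at 1073, 1004, 656 and 1102 RPKM in icKO STAT3i libraries and 2269, 1998 and 2287 RPKM in WT STAT3i libraries, gave -1.21 ± 0.60 (adjusted p = 0.13).

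Postn was the exception. It was at 192, 195, 149.8 and 184 RPKM in icKO STAT3i libraries, against 105, 105 and 117 RPKM in WT STAT3i libraries, and rose by 0.72 ± 0.16 (adjusted p = 0.0052). It was thus called higher in icKO in both comparisons of day 3 epidermis, which share no library but share the estimate of the spread. Fn1 (-0.32 ± 0.28, adjusted p = 0.41), Vim (-0.36 ± 0.21, adjusted p = 0.20) and Col12a1 (0.31 ± 0.20, adjusted p = 0.24) did not pass. With the sex term, informed only by libraries without inhibitor, 1 member was called, Col3a1, and as higher (1.57); Col1a1 (1.34) and Col1a2 (1.13) also turned, Postn was at 0.35 (adjusted p = 0.43), and Dcn at -0.59 (adjusted p = 0.25) and Tnxb at -0.12 (adjusted p = 0.76) lost their calls.

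Of 22 other fibroblast genes 13 fell and none rose. Of 17 keratinocyte markers 10 rose and 3 fell; Krt14 was at 2082 to 4152 RPKM in icKO STAT3i libraries, against 1058 to 1221 RPKM in WT STAT3i libraries. The keratinocyte marker sum was 13421 to 17724 RPKM in icKO STAT3i and 7862 to 8216 RPKM in WT STAT3i libraries, and the part of this in the matrix result was not tested. In such bulk samples fewer fibroblasts and less RNA of these genes per fibroblast cannot be told apart. Of all genes tested 34% were called, and the shares in the lists that follow were near that. Of 21 collagen maturation genes 2 rose and 4 fell, among them Pcolce2, an enhancer of procollagen processing (-1.48 ± 0.20, adjusted p = 0.00023), and Crtap, a partner of a prolyl hydroxylase (-0.38 ± 0.09), while Plod2 rose (0.73 ± 0.16). Of 16 matrix turnover genes 1 rose and 5 fell, those of smallest p being the protease inhibitor Timp3 (-0.69 ± 0.08) and the metalloproteinase Mmp27 (-1.25 ± 0.20), and of 20 TGF-β pathway genes 1 rose and 6 fell, among them Tgfbi (-0.94 ± 0.13), a secreted target, and the co-receptor Tgfbr3 (-1.08 ± 0.16).

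**Figure D3:**
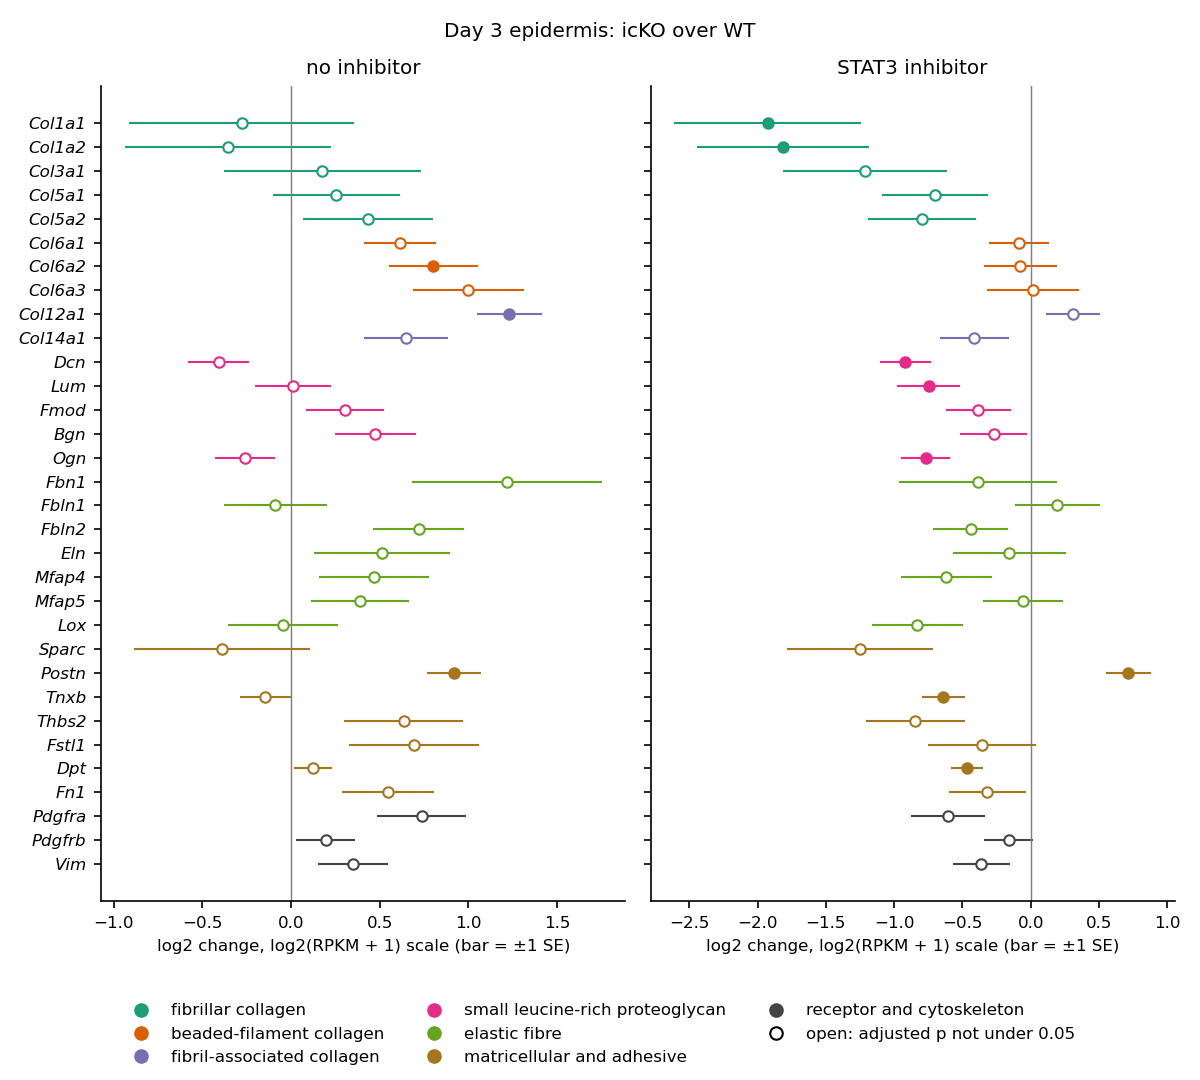
Log2 change (log2(RPKM + 1) scale, bars ± 1 SE) of icKO over WT in day 3 epidermis for the 32 genes, coloured by role, without inhibitor on the left and with the STAT3 inhibitor on the right; filled points passed the adjusted p of 0.05. Without inhibitor 24 of 32 points lie above 0, with it 28 lie below 0, and Postn is filled and positive in both.

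The inhibitor itself was compared within each genotype, using the same libraries as above, so these values are not independent of them. In icKO epidermis, STAT3i against no inhibitor, 2 members fell and none rose; 5.56% of all 13074 genes tested passed, close to the share among the members. Dpt was at 148, 127, 127 and 148 RPKM in icKO STAT3i libraries, against 191, 193, 240.4 and 167 RPKM in icKO libraries without it, and fell by 0.51 ± 0.11 (adjusted p = 0.022). Col14a1, a fibril-associated collagen, was at 8.01, 6.14, 4.48 and 7.95 RPKM in icKO STAT3i libraries, against 15, 14.9, 15.9 and 9.54 RPKM in icKO libraries, and fell by 0.96 ± 0.23 (adjusted p = 0.035). Neither group pair overlapped. Both calls were lost when icKO a and b were averaged (adjusted p = 0.0631 for Dpt and 0.0952 for Col14a1).

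The next smallest p values in icKO epidermis, Ogn (-0.56 ± 0.17, adjusted p = 0.066) and Mfap4 (-0.70 ± 0.31, adjusted p = 0.18), did not pass. Neither did Col1a1 (-0.79 ± 0.63), Col3a1 (-0.81 ± 0.55), Fn1 (-0.44 ± 0.26) or Vim (-0.37 ± 0.19). Dcn (-0.01 ± 0.17) and Postn (-0.04 ± 0.15) were close to 0. Of the 32 log2 changes, 30 were negative. Among the genes around them, P4ha1 fell (-0.43 ± 0.07), as did Tgfb3, a TGF-β ligand (-0.53 ± 0.07), Tgfbr3 (-0.59 ± 0.15) and the signal transducer Smad3 (-0.37 ± 0.10). With icKO a and b averaged, P4ha1 (adjusted p = 0.0457) and Tgfb3 (adjusted p = 0.0115) kept their calls, whereas Tgfbr3 (adjusted p = 0.0959) and Smad3 (adjusted p = 0.114) did not.

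In WT epidermis, STAT3i against no inhibitor, 4 members rose and none fell; 12.5% of the members passed, against 18.8% of all 13211 genes tested. Thbs2, thrombospondin 2, was at 125, 109 and 129.8 RPKM in WT STAT3i libraries, against 89.7, 63.5, 25.1 and 21.4 RPKM in WT libraries, and gave a log2 rise of 1.5 ± 0.36 (adjusted p = 0.015). Pdgfra, the receptor that marks dermal fibroblasts, was at 25.1, 23.2 and 27.2 RPKM in WT STAT3i libraries, against 17, 19.4, 7.15 and 7.34 RPKM in WT libraries, and rose by 1.06 ± 0.27 (adjusted p = 0.020). Fbln2, a fibulin of elastic fibres, rose by 1.07 ± 0.28 (adjusted p = 0.020) and Col12a1 by 0.66 ± 0.20 (adjusted p = 0.034). The groups overlapped only for Col12a1, and WT c and d were the low libraries of Thbs2 and Pdgfra.

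These 4 calls were lost together when WT STAT3i a or c was left out (adjusted p = 0.0667 and 0.0643 for Thbs2), and none was made when the fit held the 7 WT libraries alone. Dcn (0.50 ± 0.19, adjusted p = 0.073), Col1a1 (0.86 ± 0.68), Col3a1 (0.58 ± 0.60), Postn (0.16 ± 0.16), Fn1 (0.42 ± 0.28) and Vim (0.34 ± 0.21) did not pass. Macrophage markers moved with them: 8 of 11 rose, with sums of 2499 to 3069 RPKM in WT STAT3i libraries and 411 to 2300 RPKM in WT libraries, and their part in the result was not tested. Averaging icKO a and b, which share the estimate of the spread, left 5 of the 11 called higher. Averaging icKO STAT3i a and d as well left 1. Tgfb1, the main TGF-β ligand, rose by 1.11 ± 0.22, Tgfbi by 0.54 ± 0.13 and Ltbp1 by 0.55 ± 0.17, among 4 of 20 pathway genes that rose. The same 2 steps of averaging left 3 and then 2 of the 20 called higher.

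Whether the icKO effect differed with the inhibitor was tested as the interaction of genotype and inhibitor over all 15 libraries. None of the 32 members passed, where 2.14% of all 13563 genes did; 15 members had an unadjusted p under 0.05. The interaction was negative for 31 of 32 members, with a median of -0.86 over the members and 0.01 over all genes; the members' median was -0.45 with the sex term. Genotype and sex coincided in the libraries with inhibitor and largely in those without it, so an effect of sex cannot be told apart from this interaction. The smallest adjusted p values were those of Dpt (-0.59 ± 0.16, adjusted p = 0.059), Pdgfra (-1.34 ± 0.37, adjusted p = 0.064), Col12a1 (-0.92 ± 0.27, adjusted p = 0.070) and Fbln2 (-1.16 ± 0.38, adjusted p = 0.090). Col1a1 gave -1.65 ± 0.93, Col3a1 -1.39 ± 0.82, Dcn -0.51 ± 0.25, Fn1 -0.86 ± 0.38, Vim -0.71 ± 0.29 and Postn -0.20 ± 0.22, the last being the closest to 0 of the 32. Without WT a 5 members passed (15.6%, against 10.1% of all genes), without WT b 6 (18.8% and 12.6%), and without icKO d 1 (3.12% and 3.93%). Of the surrounding lists Timp3 (-0.55 ± 0.11), P4ha1 (-0.61 ± 0.11), Tgfb3, Tgfbi and Tgfbr3 passed, but none did with icKO a and b averaged (adjusted p = 0.0661 for P4ha1, 0.0758 for Timp3 and 0.0859 to 0.1 for the others). Averaging left 9 of the 290 genes called in all, and leaving out WT STAT3i a or c left 0.

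In day 3 dermis the libraries have to be named by their labels, since Dlx3 went against them: it was at 64.3, 65.9 and 1.75 RPKM in the libraries labelled icKO, against 3.58, 20.5 and 2.19 RPKM in those labelled WT. No gene passed: 0 of 32 members and 0% of all 13017 genes tested, although 5 members and 1643 genes had an unadjusted p under 0.05. The members were nevertheless mostly lower in the libraries labelled icKO, 29 of 32 by sign, with a median log2 change of -0.70 over the members and -0.01 over all genes. The median was -0.31 without the library labelled icKO a, the lowest of the 6 for 31 members. All 3 libraries labelled icKO and those labelled WT a and b held Xist only, and the one labelled WT c, the highest of the 6 for 24 members, held Ddx3y only; the part of sex was not tested.

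Postn had the smallest p of the members. It was at 61.8, 113 and 109.9 RPKM in the libraries labelled icKO, against 253, 216 and 224 RPKM in those labelled WT, with a log2 difference of -1.32 ± 0.25 (adjusted p = 0.36). The groups did not overlap, and the sign is opposite to that in day 3 epidermis, a difference that was not tested because the tables were normalized separately. Ogn (-0.77 ± 0.26), Mfap5 (-0.71 ± 0.28), a microfibril protein, and Fbn1 (-1.04 ± 0.42) came next.

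Col1a1 was at 359, 641 and 1114 RPKM in the libraries labelled icKO, against 863, 714 and 1667 RPKM in those labelled WT (-0.67 ± 0.49). Col3a1 was at 279, 484 and 961 RPKM in those labelled icKO, against 846, 769.6 and 1431 RPKM in those labelled WT (-0.95 ± 0.48). Dcn was at 118, 215 and 517 RPKM in those labelled icKO, against 418, 341 and 619.6 RPKM in those labelled WT (-0.91 ± 0.55). Fn1 gave -0.75 ± 0.30 and Vim -1.04 ± 0.54. For Col1a1, Col3a1, Dcn, Fn1 and Vim the library labelled icKO c was the highest of its group and lay within the range of those labelled WT. Without it 11 members were called, all lower, which is 34.4% of the members, against 23.8% of all 13391 genes tested (3192 genes). The libraries labelled icKO that remain, a and b, held Dlx3 at 64.3 and 65.9 RPKM, so these calls cannot be tied to loss of Dlx3. The members were Postn (-1.45, adjusted p = 0.027), Thbs2 (-1.76, adjusted p = 0.022), Tnxb (-1.28, adjusted p = 0.024), Dpt, Fn1, Mfap5, Eln, Fbn1, Dcn (-1.48, adjusted p = 0.041), Col3a1 (-1.41, adjusted p = 0.046) and Vim (-1.55, adjusted p = 0.049).

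Hair shaft transcripts divided the 6 libraries differently from the labels. The mean log2(RPKM + 1) of 14 hair shaft markers was 9.55, 9.70 and 0.54 in the libraries labelled icKO, against 0.78, 7.54 and 0.41 in those labelled WT. Libraries labelled icKO a and b, with the most hair shaft RNA, had the lowest levels of Col1a1, Col3a1, Dcn, Fn1 and Vim of the 6. Skeletal muscle markers summed to 3700.1 to 11378 RPKM in the libraries labelled icKO, against 14522 to 25241 RPKM in those labelled WT. The part of either in the matrix result was not tested.

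**Figure D4:**
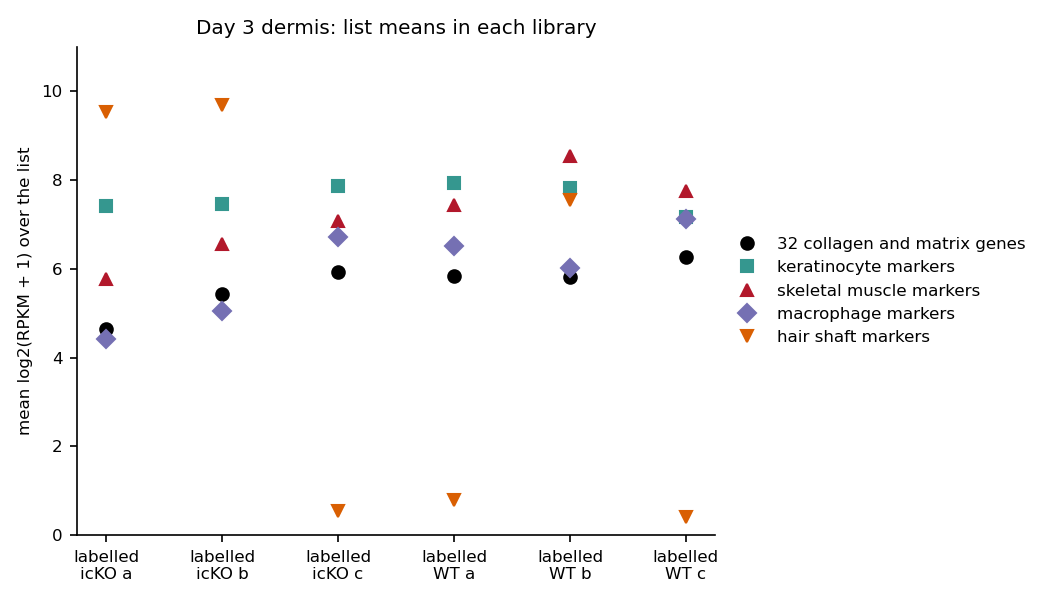
Mean log2(RPKM + 1) over the 32 genes and over 4 lists of cell type markers in each day 3 dermis library. The hair shaft mean is 9.55 and 9.70 in the libraries labelled icKO a and b and 7.54 in the one labelled WT b, and 0.41 to 0.78 in the other 3, while the 32 genes are lowest in labelled icKO a and b.

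At week 1, icKO epidermis held less type I and III collagen RNA than WT epidermis. Of the 32 members 21 reached the level for testing, 2 of which rose and 9 fell, where 55.3% of all 11796 genes tested passed, 21.1% of them higher; the share called was near that of all genes. A member could reach the level for testing through 1 group alone, as Fbln2 did through icKO and Tnxb and Ogn through WT; such a member had to differ, so these counts do not stand for all 32. All 4 fibrillar collagens tested and both type VI chains tested fell. The median log2 change was -0.35 over the tested members and -0.50 over all genes; after quantile normalization it was 0.17 and -0.05, with 3 members higher and 6 lower and 47.4% of all calls higher. Without icKO b the members' median was -0.55. The 11 members not tested (Col5a1, Col6a3, Col14a1, Fmod, Fbn1, Eln, Mfap4, Mfap5, Lox, Pdgfra and Pdgfrb) were at or below 1.31 RPKM in all 4 libraries. Dlx3 was at 1.46 and 1.82 RPKM in icKO epidermis, against 3.17 and 5.79 RPKM in WT epidermis.

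Tnxb had the largest fall. It was at 0.358 and 0.307 RPKM in icKO epidermis, against 15.7 and 12.3 RPKM in WT epidermis (-3.48 ± 0.19, adjusted p = 0.0013). Col1a1 was at 2.07 and 1.64 RPKM in icKO epidermis, against 18.1 and 25.3 RPKM in WT epidermis (-2.98 ± 0.23, adjusted p = 0.0020). Col3a1 was at 3.30 and 2.62 RPKM in icKO epidermis, against 12.9 and 17.7 RPKM in WT epidermis (-2.03 ± 0.22, adjusted p = 0.0032). Col1a2 fell by 2.58 ± 0.21, Col6a1 by 1.89 ± 0.29 and Sparc by 1.61 ± 0.16, the last with 15.3 and 13.8 RPKM in icKO and 43.4 and 49.4 RPKM in WT epidermis. None of these groups overlapped. Ogn (-0.73), Col6a2 (-0.86) and Col5a2 (-0.60) fell as well.

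Dcn and Fbln2 went against that direction. Dcn was at 27.1 and 78.0 RPKM in icKO epidermis, against 10.5 and 18 RPKM in WT epidermis, and rose by 1.67 ± 0.54 at the edge of the threshold (adjusted p = 0.0497). Fbln2, at 1.32 and 2.61 RPKM in icKO and 0.429 and 0.663 RPKM in WT epidermis, rose by 0.91 ± 0.25 (adjusted p = 0.031). The 2 icKO libraries were unlike each other in Vim, with 48.2 RPKM in icKO a and 366 RPKM in icKO b, against 70.1 and 60.1 RPKM in WT epidermis (1.03 ± 0.93). The same held for Fn1, with 1.16 RPKM in icKO a and 12.3 RPKM in icKO b, against 2.64 and 1.72 RPKM in WT epidermis (0.77 ± 0.85). Without icKO b both changes turned, to -0.42 for Vim and -0.55 for Fn1. Postn was at 79.7 and 151 RPKM in icKO epidermis, against 188 and 142 RPKM in WT epidermis (-0.57 ± 0.34, adjusted p = 0.21).

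The calls of Tnxb, Col1a1 and Col3a1 held in 7 of 9 alternatives, that of Fbln2 in 6 and that of Dcn in 4. Leaving out 1 library left 1 in its group and decided the count. The tested members' median log2 change was then -0.285 without WT a, -0.298 without WT b, -0.288 without icKO a and -0.549 without icKO b. Macrophage markers, 7 of 10 higher, summed to 127 to 444 RPKM in icKO epidermis and 39.0 to 40.5 RPKM in WT epidermis, and 11 of 17 keratinocyte markers fell while 1 rose; the part of either was not tested. The list counts stand beside 55.3% of all genes called, 21.1% of them higher. Of 13 collagen maturation genes 1 rose, the lysyl oxidase Loxl2 (0.80 ± 0.16), and 6 fell, including the procollagen protease Adamts14 (-2.82 ± 0.15) and P4ha1 (-1.11 ± 0.19). Of 13 matrix turnover genes 6 rose, among them the protease Mmp3, stromelysin, by 3.99 ± 0.65 and Adamts5 by 1.02 ± 0.19, and Timp3 fell by 1.77 ± 0.27. Of 20 TGF-β pathway genes 2 rose and 7 fell, led by the ligands Tgfb2 (-1.41 ± 0.15) and Tgfb3 (-1.73 ± 0.20).

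Week 1 dermis showed falls across most roles, with 4 members going the other way. Of the 32 members 4 rose and 18 fell, where 49.3% of all 12744 genes tested passed, 17.1% of them higher, so a larger share of the members was called than of all genes. The median log2 change was -0.59 over the members and -0.38 over all genes. After quantile normalization, which brought the all-gene median to 0.00 and the share of calls that were higher to 49.6%, 4 members rose and 15 fell. All 3 beaded-filament collagens, both fibril-associated collagens and 4 of 5 fibrillar collagens fell. Dlx3 was at 0.140 and 0.167 RPKM in icKO dermis, against 2.81 and 5.21 RPKM in WT dermis.

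Fmod had the largest fall. It was at 10.1 and 8.03 RPKM in icKO dermis, against 56.8 and 52.1 RPKM in WT dermis (-2.47 ± 0.16, adjusted p = 0.0016). Fbln1, fibulin 1, was at 4.26 and 3.53 RPKM in icKO dermis, against 13.3 and 13.6 RPKM in WT dermis (-1.57 ± 0.15, adjusted p = 0.0020). Col6a1 was at 24.8 and 28.8 RPKM in icKO dermis, against 94.7 and 69.5 RPKM in WT dermis (-1.57 ± 0.18, adjusted p = 0.0021). Eln was at 30.1 and 35.6 RPKM in icKO dermis, against 69.5 and 80.4 RPKM in WT dermis (-1.17 ± 0.15). Pdgfrb (-1.32 ± 0.15) and Col6a2 (-1.41 ± 0.19) followed. None of these groups overlapped, and the 6 calls held in 9 of 9 alternatives.

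The type I and III collagen genes, which were among the largest falls in epidermis, differed less here. Col3a1 was at 439 and 494 RPKM in icKO dermis, against 722 and 593 RPKM in WT dermis, and fell by 0.49 ± 0.14 (adjusted p = 0.029), a call kept in 4 of 9 alternatives. Col1a1 was at 258 and 274 RPKM in icKO dermis, against 355 and 297 RPKM in WT dermis (-0.29 ± 0.14, adjusted p = 0.12). The remaining falls were those of Tnxb (-1.33), Col5a1 (-1.10), Fbln2 (-1.03), Col6a3 (-1.03), Col5a2 (-0.97), Col12a1 (-0.95), Lum (-0.73), Thbs2 (-0.62), Col14a1 (-0.59), Fbn1 (-0.58) and Col1a2 (-0.48).

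The 4 members that rose were Dpt, Vim, Bgn and Mfap5. Dpt was at 299 and 317 RPKM in icKO dermis, against 107 and 133 RPKM in WT dermis (1.36 ± 0.14, adjusted p = 0.0020). Vim was at 1381 and 1403 RPKM in icKO dermis, against 698 and 837 RPKM in WT dermis (0.86 ± 0.13, adjusted p = 0.0036). Bgn, biglycan, was at 251 and 279.8 RPKM in icKO dermis, against 156 and 193 RPKM in WT dermis (0.61 ± 0.15, adjusted p = 0.016), and Mfap5 rose by 0.51 ± 0.16 (adjusted p = 0.035). The groups, of 2 libraries each, did not overlap in any of the 4, which adds little to the calls. Dpt kept its call in 9 of 9 alternatives, Vim in 8, Bgn in 6 and Mfap5 in 4; with all 8 week 1 libraries in the fit, Vim (adjusted p = 0.38), Bgn (adjusted p = 0.24) and Mfap5 (adjusted p = 0.056) did not pass. Macrophage markers moved with them, 6 of 11 higher, with sums of 2178 to 2398 RPKM in icKO dermis and 1360 to 1541 RPKM in WT dermis, and their part was not tested. Dcn, at 709.5 and 687 RPKM in icKO dermis and 945 and 674 RPKM in WT dermis (-0.19 ± 0.17), Postn, at 71.4 and 44.2 RPKM in icKO dermis and 173 and 77.8 RPKM in WT dermis (-1.04 ± 0.39, adjusted p = 0.065), and Fn1 (-0.52 ± 0.18, adjusted p = 0.054) did not pass. Without WT b, Postn passed (-1.61, adjusted p = 0.0037).

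**Figure D5:**
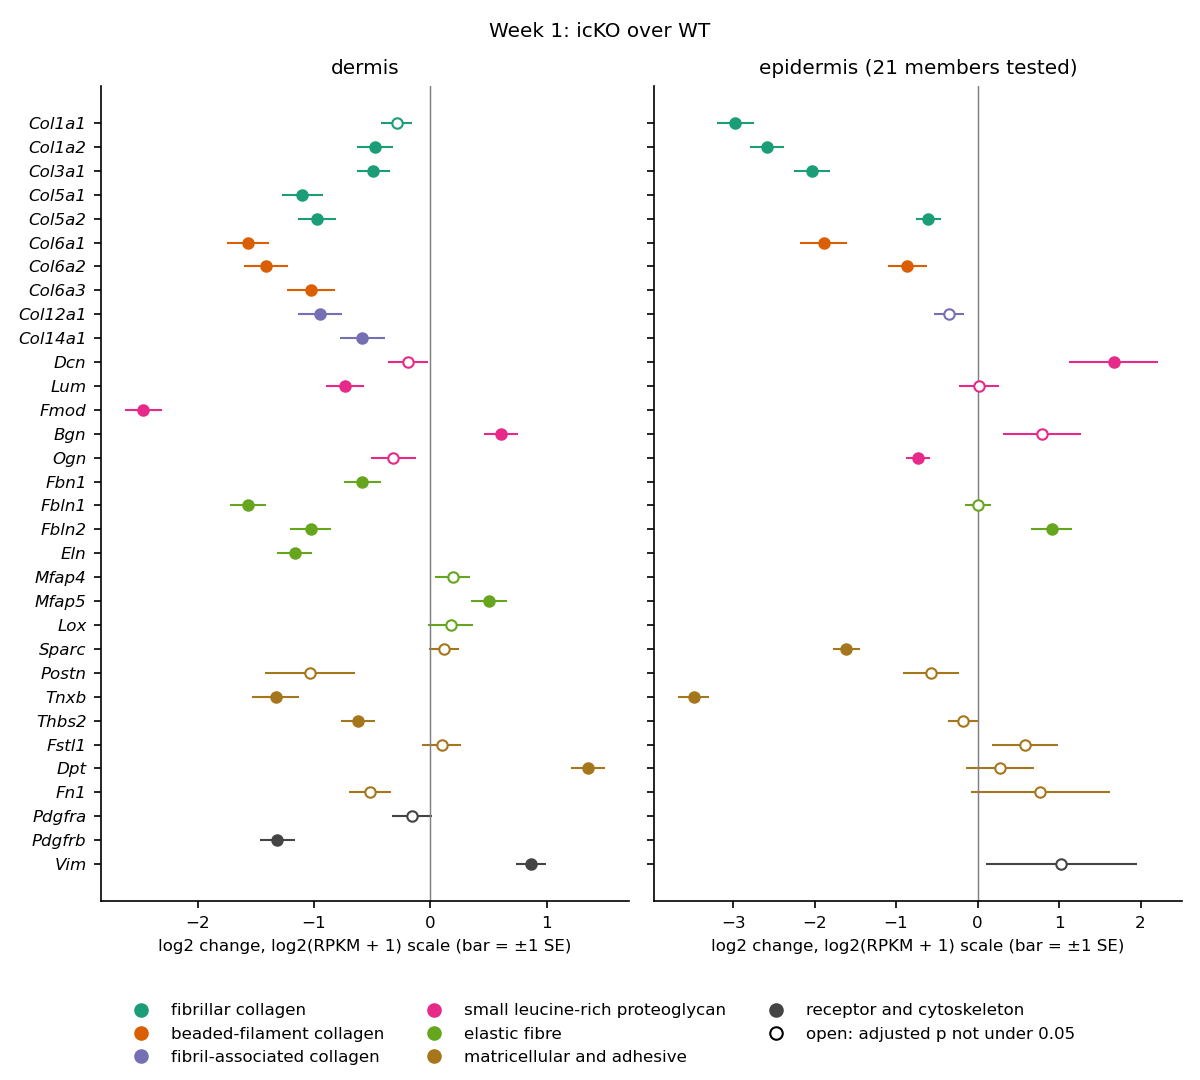
Log2 change (log2(RPKM + 1) scale, bars ± 1 SE) of icKO over WT at week 1, coloured by role, in dermis for 32 members and in epidermis for the 21 tested; filled points passed the adjusted p of 0.05. Col1a1 lies at -0.29 in dermis and -2.98 in epidermis, and Dpt, Vim, Bgn and Mfap5 are the filled positive points in dermis.

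The lists of matrix-building genes around the members held more falls than rises. So did all genes, of which 49.3% were called, with 17.1% of the calls higher. Of 19 collagen maturation genes 13 fell and none rose in icKO dermis, among them the lysyl hydroxylase Plod1 (-1.47 ± 0.13), the collagen chaperone Serpinh1 (-1.17 ± 0.13) and the procollagen protease Bmp1 (-1.18 ± 0.15). Of 15 matrix turnover genes 5 fell, led by Timp3 (-1.25 ± 0.17), the collagen receptor Mrc2 (-0.93 ± 0.15) and the protease Mmp14 (-0.79 ± 0.13). Of 21 TGF-β pathway genes 14 fell and 1 rose, led by the latent TGF-β binding proteins Ltbp4 (-2.12 ± 0.16) and Ltbp3 (-1.78 ± 0.20) and the co-receptor Eng (-1.70 ± 0.16). Markers of other cell types also fell, 12 of 12 endothelial, 14 of 14 hair shaft and 15 of 16 keratinocyte markers, and none rose. Of 22 other fibroblast markers 8 fell and none rose, a smaller share called than the 49.3% of all genes. Endothelial markers summed to 329 to 337 RPKM in icKO dermis and 844 to 980.1 RPKM in WT dermis; the part of these cells in the matrix result was not tested.

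The difference between the tissues in the icKO effect was tested as the interaction of tissue and genotype over the 8 week 1 libraries, dermis minus epidermis. Of 32 members 11 passed, 5 positive and 6 negative, where 32.5% of all 13539 genes passed, a share near that of the members. The effect was less negative in dermis for Col1a1 (2.69 ± 0.27, adjusted p = 0.0011), Tnxb (2.16 ± 0.29), Col1a2 (2.11 ± 0.27) and Col3a1 (1.54 ± 0.27). Sparc (1.73 ± 0.20) fell in epidermis but not in dermis, with 695 and 818 RPKM in icKO and 699 and 690 RPKM in WT dermis. The icKO effect was more negative in dermis for Fmod (-2.20 ± 0.27), Fbln2 (-1.93 ± 0.35), Fbln1 (-1.57 ± 0.20), Pdgfrb (-1.43 ± 0.20), Eln (-1.29 ± 0.26) and Col6a3 (-1.07 ± 0.27). Of these Fmod, Pdgfrb, Eln and Col6a3 were below the level for testing in epidermis, where a fall could hardly be measured. Dcn (-1.86 ± 0.65, adjusted p = 0.064), Fn1 (-1.29 ± 1.01), Postn (-0.47 ± 0.63) and Vim (-0.16 ± 1.08) did not pass. The members' median was -0.45, against -0.60 without icKO epidermis a and -0.11 without icKO epidermis b, each of which left 1 library in that group. The route of tamoxifen differed between the tissues, so tissue and route cannot be told apart in this test.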

How the data were processed

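Per the file headers, the deposited values are RPKM, reads scaled to length and depth, in a gene table for day 3 epidermis and transcript tables for day 3 dermis and week 1; the authors also deposited alignments or reads per library. Per the submitters' processing notes, TopHat2 2.1.0, Partek and mm10 were used, and mm9 stands in the header of 1 deposited comparison table, for week 1. Per the labels' protocols, a NEBnext kit gave the cDNA and a NuGen kit the libraries. The sources used here do not say how shared reads were counted.

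Transcripts were summed per gene after exact duplicates were dropped. Genes were tested if the number of libraries with 1 RPKM or more was no smaller than the smaller group, on log2(RPKM + 1) with limma 3.58.1 (intensity trend; R 4.3.3). All 15 day 3 epidermis libraries shared a fit, as did the 8 week 1 libraries for comparisons of tissues; the other comparisons used their own libraries. P values were Benjamini-Hochberg adjusted over all tested genes, with 0.05 as the threshold. The test was tried on simulated data. RPKM hold no counts, so no counting interval is given.

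The members, lists and tests were chosen with earlier results of these data known. Col1a1, Col3a1, Dcn, Postn, Fn1 and Vim are described in every comparison, with the 6 smallest p values in each direction past the threshold, any member against the majority, and up to 3 genes of the collagen maturation, matrix turnover and TGF-β lists; cell type marker lists are given as counts and sums. For 2 of 29 samples, both week 1 epidermis, title and genotype field name different genotypes; titles were followed. Averaging close libraries was added after seeing the data. The result of 1 pathway gene is not reported here.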

Additional observations from a re-analysis of the deposited data

Results flagged for a closer look

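Single libraries lay far from the others of their group in 18 of 96 gene and group combinations of day 3 epidermis. The genes vary together within a library, and icKO a and b, and icKO STAT3i a and d, were the closest pairs of libraries. No chance rate can therefore be set beside this count. Library c of icKO STAT3i was the low one for Col1a1 (657 RPKM), Col6a1 (90.1 RPKM), Col6a2 (55.0 RPKM), Col6a3 (24.3 RPKM), Bgn (174 RPKM), Fbln2 (50.5 RPKM), Thbs2 (56.7 RPKM) and Pdgfra (14 RPKM). Library c of icKO without inhibitor was high for Lum (209 RPKM) and Ogn (51.5 RPKM) and low for Col12a1 (6.51 RPKM) and Thbs2 (59.6 RPKM), and it held both Xist and Ddx3y. Library d of that group was low for Col14a1 (9.54 RPKM), Bgn (254 RPKM), Fstl1 (131 RPKM) and Fn1 (47.3 RPKM). Since icKO a and b may be 1 sample, the distance of c and d from the others in that group is counted over fewer samples than 4. Among WT libraries without inhibitor, Col12a1 was high in b (4.78 RPKM) and Postn low in d (71.4 RPKM).

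The icKO effect at week 1 differed between dermis and epidermis for 11 members by the interaction test. The differences, dermis minus epidermis on the log2 scale, were 2.69 for Col1a1, 2.11 for Col1a2, 1.54 for Col3a1, 1.73 for Sparc and 2.16 for Tnxb, and -1.07 for Col6a3, -2.20 for Fmod, -1.57 for Fbln1, -1.93 for Fbln2, -1.29 for Eln and -1.43 for Pdgfrb.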

How the results depend on the processing

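The counts of members called moved by more than 1.5 times under these settings, except for week 1 dermis and for the tissues on leaving out 1 library. With the sex term, 18 were called for icKO over WT in day 3 epidermis without inhibitor (3 in the main result) and 1 with the STAT3 inhibitor (8). When only the compared groups were fitted, the counts were 1 and 17 for these, 5 for the inhibitor in icKO (2) and 0 for the inhibitor in WT (4). With no filter on low values they were 1 for the inhibitor in icKO, 7 for week 1 epidermis (11) and 13 for week 1 dermis (22). Averaging icKO a and b, or also icKO STAT3i a and d, gave 0 for the inhibitor in icKO. Leaving out 1 library gave 2 to 11 members without inhibitor, 5 to 6 with it, 0 to 2 and 0 to 6 for the inhibitor in icKO and WT, 0 to 6 for their interaction, 0 to 11 for day 3 dermis, 0 to 19 for week 1 epidermis, 15 to 25 for week 1 dermis, 28 for the tissues (29) and 9 to 17 for tissue by genotype (11); where this left 1 library in a group, it was assumed to vary like the others. Reversed values with the sex term were Col1a1 1.76, Col1a2 1.49, Lox 0.85 and Sparc 1.16 without inhibitor, and Col1a1 1.34, Col1a2 1.13 and Col3a1 1.57 with it. Leaving out week 1 icKO epidermis libraries in turn moved Fn1 between -0.55 and 2.08 and Vim between -0.42 and 2.48 in epidermis, and Vim between -1.61 and 1.29 in tissue by genotype, each reversed without library b. The causes were not tested. Quantile normalization moved the share of all calls that were higher to 44.7% (71.1% in the main result) without inhibitor, 46.1% (58.1%) for the inhibitor in WT, 51.3% (34.1%) for the interaction and 44.7% (57.1%) for the tissues. No paired analysis was possible because the table columns carry no replicate number. A pseudocount of 0.1, the transcript of highest mean RPKM and a fit of all 8 week 1 libraries left the counts within 1.5 times, but the last made 16 calls in week 1 dermis, 1 of them higher (4 in the main result), and the pseudocount gave 7 positive and 4 negative calls for tissue by genotype (5 and 6).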
